A study of Mus musculus with 10 samples.

Results

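Genes that carry fatty acids into heart muscle cells and store them there were followed in these hearts: Cd36, Fabp3 and Lpl (uptake), Acsl1 and Acsf2 (activation), Dgat2 (triglyceride synthesis), Plin2, Plin4 and Plin5 (droplet coat) and Pnpla2 (release). These 10 genes, of 56748 in the count tables, were chosen by name for their role, and all 10 passed the filter on low counts. The choice was made with earlier results of these data known, so the share of them called is not that of an unselected set. Plin5, Fabp3 and Acsf2 were already named by the study from these same hearts, so their direction here is not independent evidence. RNA was sequenced from whole hearts, atria and ventricles together, of 5 trained and 5 sedentary male C57BL/6 mice, all wild type (WT), with 1 library for each heart. The training mice ran on a motor-driven treadmill for 8 weeks, 5 days a week, at 15 m/min for 120 min a day, after rest and a week of acclimatization. Their sedentary counterparts were allocated at random and were of the same age; all mice were bought at 8 weeks old. The running was forced, done during the day and controlled in speed, and a whole heart mixes muscle cells with vessels, fibroblasts and any fat that adheres. The hour of harvest is not given in the sources used here.

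The heart takes most of its energy from fatty acids. Lipoprotein lipase frees them from circulating triglycerides at the vessel wall, the scavenger receptor CD36 and the binding protein FABP3 carry them into and through the muscle cell, and acyl-CoA synthetases activate them by joining them to coenzyme A. What is not burned in mitochondria is esterified to triglyceride and kept in lipid droplets, whose perilipin coat controls access of the lipase ATGL, the product of Pnpla2.

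The training libraries held 29461697 to 35945417 counts on genes and the sedentary libraries 35196993 to 39431030. Levels are given as counts scaled to library size (CPM) and corrected by TMM, a factor that puts the bulk of genes at the same level in each heart. Groups were compared for 15454 genes with edgeR's quasi-likelihood test, and a gene was called at a Benjamini-Hochberg adjusted p below 0.1. The mice carry separate numbers in the labels, so the spread is between animals. Markers of heart muscle (Myh6, Tnnt2, Ttn and 7 others) were abundant in every heart, and their summed level ranged from 62718 to 66277 CPM in training hearts and from 66591 to 75156 CPM in sedentary hearts, which did not overlap. The 10 markers did not move alike. In log2 fold change, training minus sedentary, 8 lay below 0, the lowest Actc1 at -0.38, and 2 above 0, the highest Tcap at 0.04. In bulk tissue, fewer cells of a type, less RNA per cell and a change in single marker genes cannot be told apart by such a sum.

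Per unit of transcript length, the genes spanned from the most abundant binding protein to a rare mitochondrial enzyme. In TPM, a measure that divides reads by transcript length and by the total of the heart, the median over the 10 hearts was 3214 for Fabp3, 1411 for Lpl, 739 for Cd36, 323 for Acsl1, 267 for Pnpla2 and 159.6 for Dgat2. The droplet coat genes followed at 85.6 TPM for Plin4, 76.5 TPM for Plin5 and 49.96 TPM for Plin2, and Acsf2 was lowest at 15.4 TPM. Across hearts, the ranges of neighbours in this order overlapped for Acsl1 and Pnpla2, for Plin4 and Plin5, and for Plin5 and Plin2, and did not overlap for any other neighbours. The TPM of Fabp3 counts reads that also match another locus, as given with that gene below.

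**Figure D1:**
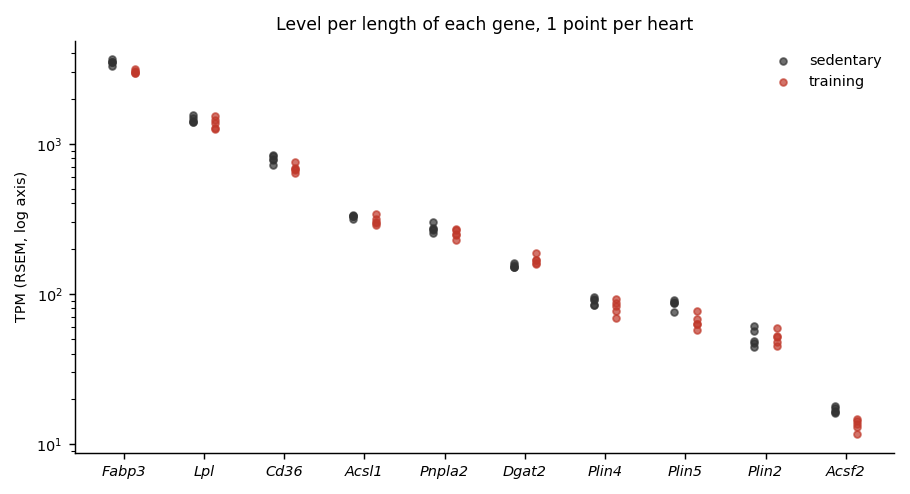
TPM of each of the 10 genes on a log axis, 1 point per heart, in dark grey for sedentary and red for training hearts, ordered by median. Fabp3 was highest, at 2975 to 3646 TPM, and Acsf2 lowest, at 11.6 to 17.96 TPM.

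After training, 7 of the 10 genes were called, all of them lower. Over all genes tested, 7.01% were called, 4.26% lower and 2.75% higher. The genes called were Fabp3, Cd36, Acsl1, Acsf2, Plin4, Plin5 and Pnpla2. Lpl and Plin2 lay below 0 without passing the test, and Dgat2 was the only one above 0, with an unadjusted p of 0.53 in the edgeR fit. The median log2 fold change, training minus sedentary, was -0.20 over the 10 genes against 0.00 over all genes tested. In 7 of the 10 genes every training heart was below every sedentary heart. That held for 2.94% of all genes tested, and 5.06% had no overlap in either direction. The 7 without overlap were Fabp3, Lpl, Acsl1, Acsf2, Plin4, Plin5 and Pnpla2.

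**Figure D2:**
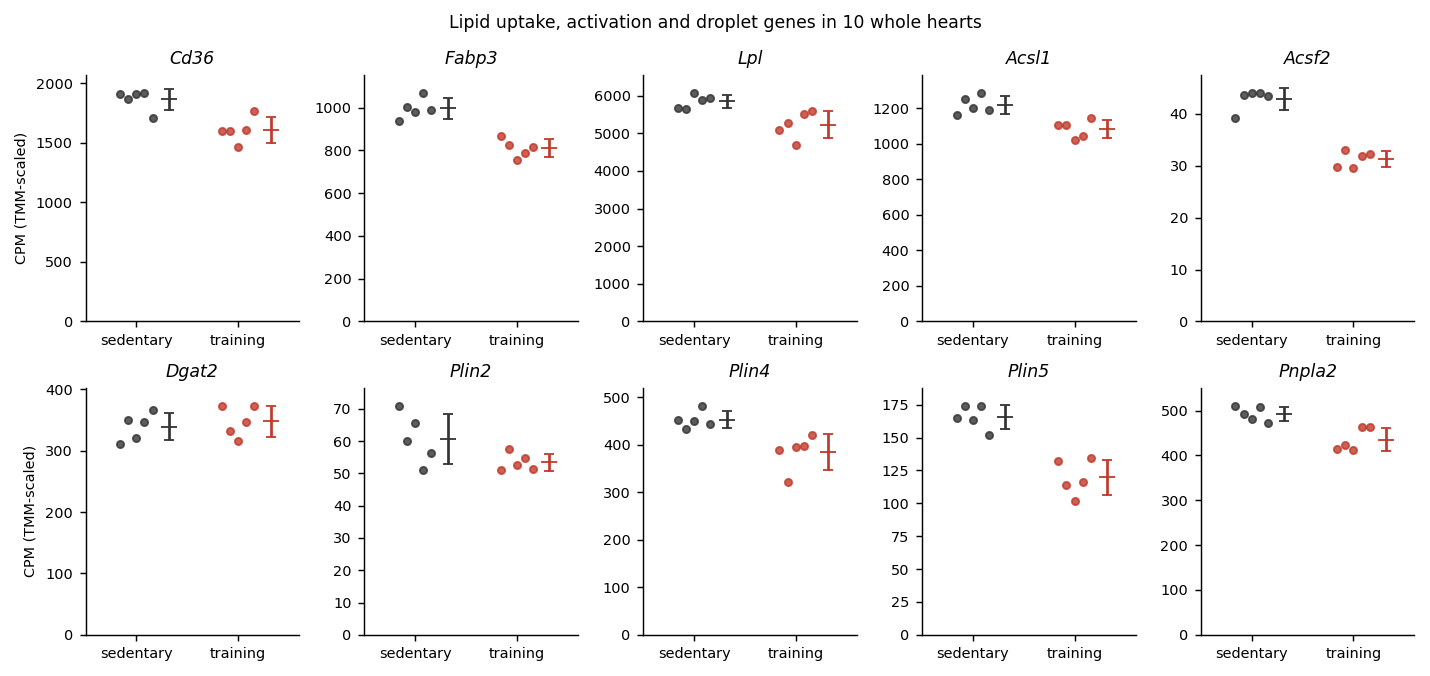
TMM-scaled CPM of each of the 10 genes, 1 point per heart, with the mean and SD of each group of 5 hearts beside the points and each axis starting at 0. Plin5 was 102 to 134 CPM in training and 152 to 174 CPM in sedentary hearts, while Dgat2 overlapped almost fully at 316 to 373 CPM and 311 to 365 CPM.

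The largest differences were those of Plin5 and Acsf2, and their promoters are shown with that of Plin2, the other droplet coat gene with a searched motif. The sequences run from 250 bases before the start of the canonical GENCODE M39 transcript to 50 bases after its first base, in the mouse assembly GRCm39, and all 3 lie on the minus strand. They are chr11:94492760-94493059 for Acsf2, chr17:56424494-56424793 for Plin5 and chr4:86588410-86588709 for Plin2. Capitals mark the E-box CACGTG in Acsf2 and the nuclear receptor half-site AGGTCA, or its reverse complement TGACCT, in Plin5 and Plin2.
Acsf2: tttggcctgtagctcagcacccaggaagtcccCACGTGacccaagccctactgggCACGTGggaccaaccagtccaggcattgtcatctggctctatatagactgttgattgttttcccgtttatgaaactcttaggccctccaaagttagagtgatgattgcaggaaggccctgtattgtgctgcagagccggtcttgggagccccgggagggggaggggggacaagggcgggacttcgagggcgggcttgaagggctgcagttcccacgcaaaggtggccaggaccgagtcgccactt
Plin5: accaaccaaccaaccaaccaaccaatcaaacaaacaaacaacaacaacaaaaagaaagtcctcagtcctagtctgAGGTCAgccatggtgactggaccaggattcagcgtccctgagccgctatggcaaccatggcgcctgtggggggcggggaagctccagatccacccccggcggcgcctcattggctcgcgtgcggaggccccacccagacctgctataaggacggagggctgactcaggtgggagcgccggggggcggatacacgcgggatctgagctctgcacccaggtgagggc
Plin2: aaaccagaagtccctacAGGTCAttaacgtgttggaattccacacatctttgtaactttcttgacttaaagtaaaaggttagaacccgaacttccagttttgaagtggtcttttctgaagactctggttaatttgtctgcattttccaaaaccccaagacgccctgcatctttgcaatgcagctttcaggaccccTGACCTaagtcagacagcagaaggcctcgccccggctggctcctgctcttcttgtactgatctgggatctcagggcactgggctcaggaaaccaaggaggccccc

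Searched on both strands over 21770 protein-coding promoters of this length, AGGTCA was found in 15.1%, CACGTG in 7.81% and TATAAA, the TATA box, in 13.2%. Of the 10 genes, Plin2 and Plin5 held AGGTCA, Acsf2 held CACGTG, and Lpl and Dgat2 held TATAAA. The TATAAA of Lpl was on the opposite strand at -8, and that of Dgat2 began after the start, at position 5. Acsf2 had 2 E-boxes, with first bases at positions -218 and -195 from the start, and 0.726% of all promoters had 2 or more. Plin2 had 2 half-sites, at -233 and, on the opposite strand, at -55, and 1.62% of promoters had 2 or more. Plin5 had 1 half-site, at -175. The direct repeat AGGTCANAGGTCA, the form that PPAR receptors are known to bind, was in none of the 10 and in 0.0459% of all promoters.

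Fabp3 (ENSMUSG00000028773, chr4:130202388-130209259, plus strand), the fatty acid binding protein of heart muscle, was measured at 867, 826, 757, 787 and 818 CPM in training hearts 1 to 5. Sedentary hearts 1 to 5 were at 938, 1004, 979.8, 1069 and 989 CPM. The groups did not overlap, with the highest training heart 867 CPM and the lowest sedentary heart 938 CPM. Its log2 fold change was -0.30 ± 0.05 (SE, n = 5 hearts a group; 95% interval -0.40 to -0.19), with an adjusted p of 0.0105 in edgeR's quasi-likelihood test.

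Fabp3 also has a near copy. Of its 724 stretches of 100 bases along the canonical transcript, 277 (38.3%) occur unchanged at chr10:86567700-86568212, the processed pseudogene Fabp3-ps1. The uniquely mapped counts used here leave out reads that match both loci. RSEM, which shares such reads out, assigned Fabp3 a median of 2.53 times as many reads, against 1.20 times over all genes. Fabp3-ps1 itself held a median of 116 uniquely mapped reads and of 3040 reads from RSEM. The log2 fold change of Fabp3 was -0.29 from the RSEM counts. On the opposite strand Zcchc17 overlaps 37.0% of the exon bases of Fabp3; at most 0.752% of the reads of Fabp3 fell on that strand.

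Cd36 (ENSMUSG00000002944, chr5:17986432-18094067, minus strand), the membrane receptor for long-chain fatty acids, was 1599, 1598, 1468, 1605 and 1771 CPM in training hearts. In sedentary hearts it was 1913, 1867, 1913, 1921 and 1713 CPM. The groups overlapped through training heart 5, the highest of its group, and sedentary heart 5, the lowest of its group. The other 4 training hearts were below every sedentary heart. Cd36 passed the edgeR test at a log2 fold change of -0.21 ± 0.05 (SE; 95% interval -0.33 to -0.10) and an adjusted p of 0.0475.

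Lpl (ENSMUSG00000015568, chr8:69284603-69360100, plus strand), the lipase that frees fatty acids at the vessel wall, was 5081, 5268, 4699, 5525 and 5592 CPM in training hearts. Sedentary hearts held 5669, 5656, 6078, 5890 and 5953 CPM. The groups were separate by a narrow gap, and the gene did not pass the test over all genes. Its log2 fold change was -0.16 ± 0.05 (SE; 95% interval -0.28 to -0.04), with an edgeR adjusted p of 0.126.

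Acsl1 (ENSMUSG00000018796, chr8:46924063-46990145, plus strand), the main long-chain acyl-CoA synthetase of heart, was 1106, 1103, 1022, 1041 and 1145 CPM in training hearts. Sedentary hearts were at 1159, 1251, 1201, 1286 and 1188 CPM, so that training heart 5 lay just below sedentary heart 1. In the fit, Acsl1 differed by a log2 fold change of -0.17 ± 0.05 (SE; 95% interval -0.27 to -0.07), and the edgeR adjusted p was 0.0651.

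Acsf2 (ENSMUSG00000076435, chr11:94447924-94508609, minus strand), a mitochondrial member of the acyl-CoA synthetase family, had the smallest p of the 10 genes. Training hearts measured 29.8, 33.1, 29.6, 31.9 and 32.3 CPM. Sedentary hearts measured 39.2, 43.7, 44.1, 44.0 and 43.4 CPM. Sedentary heart 1 stood below the other 4 of its group and still above every training heart. The log2 fold change was -0.45 ± 0.05 (SE; 95% interval -0.56 to -0.35), with an adjusted p of 0.00117 in edgeR's test. Of its 3171 stretches of 100 bases, 1030 (32.5%) also occur at chr3:65300737-65303594 in the pseudogene Gm5540, which itself held 0.0854 to 0.293 CPM. That level rests on uniquely mapped reads, which leave out the shared stretches, so it cannot show how much the pseudogene is transcribed. The median for Gm5540 was 8.5 such reads, against 15.7 reads from RSEM.

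Dgat2 (ENSMUSG00000030747, chr7:98802491-98831991, minus strand) makes the last ester bond of triglyceride. It was 373, 331, 316, 347 and 372 CPM in training hearts and 311, 350.1, 320.3, 347 and 365 CPM in sedentary hearts. The groups overlapped over nearly their whole range. Its log2 fold change was 0.04 ± 0.06 (SE; 95% interval -0.09 to 0.16; edgeR adjusted p = 0.776), an interval that leaves out a fall as large as the estimate for any other of the 10 genes.

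Of the 3 droplet coat genes, Plin4 and Plin5 were called and Plin2 was not. Plin5 (ENSMUSG00000011305, chr17:56418446-56424610, minus strand), the perilipin of oxidative tissues, which tethers droplets to mitochondria, was 132, 114, 102, 116 and 134 CPM in training hearts. It was 165, 174, 163, 174 and 152 CPM in sedentary hearts. No heart crossed between the groups. The log2 fold change was -0.47 ± 0.07 (SE; 95% interval -0.62 to -0.32), with an adjusted p of 0.00871 in edgeR's test, and the mean fell by 27.7%, from 165.6 ± 9.12 to 119.6 ± 13.6 CPM (SD, n = 5).

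Plin4 (ENSMUSG00000002831, chr17:56406617-56416931, minus strand), a perilipin of muscle and fat, is the neighbour of Plin5 on the same strand. Training hearts were at 389, 322, 396, 399 and 421 CPM, with heart 2 lowest. Sedentary hearts were at 453, 435, 451, 482 and 445 CPM and did not overlap with them. Plin4 passed the test at a log2 fold change of -0.23 ± 0.06 (SE; 95% interval -0.37 to -0.10; edgeR adjusted p = 0.0567). In Plin4, 1031 of 7352 stretches of 100 bases (14.0%) recur inside the transcript at spacings that are multiples of 99 bases, so reads from them have more than 1 place within the gene. Hdgfl2 overlaps 39.1% of its exon bases on the opposite strand, which the strand-specific counts keep apart.

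Plin2 (ENSMUSG00000028494, chr4:86565912-86588459, minus strand), the perilipin found in most tissues, was 51.2, 57.5, 52.8, 54.8 and 51.4 CPM in training hearts. In sedentary hearts it was 70.9, 60.1, 65.7, 51.0 and 56.3 CPM. The sedentary hearts were spread more widely and contained both the highest and the lowest of the 10 values. The log2 fold change of -0.18 ± 0.08 (SE; 95% interval -0.35 to -0.02) did not pass the edgeR test (adjusted p = 0.192).

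Pnpla2 (ENSMUSG00000025509, chr7:141034404-141040656, plus strand) encodes ATGL, which takes the first fatty acid off stored triglyceride. It was 414, 422, 412, 463 and 462 CPM in training hearts and 509.9, 492, 481, 508 and 472 CPM in sedentary hearts. Training hearts 4 and 5 lay just below sedentary heart 5 without reaching it. Pnpla2 passed the test at a log2 fold change of -0.18 ± 0.05 (SE; 95% interval -0.28 to -0.08; edgeR adjusted p = 0.0511).

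**Figure D3:**
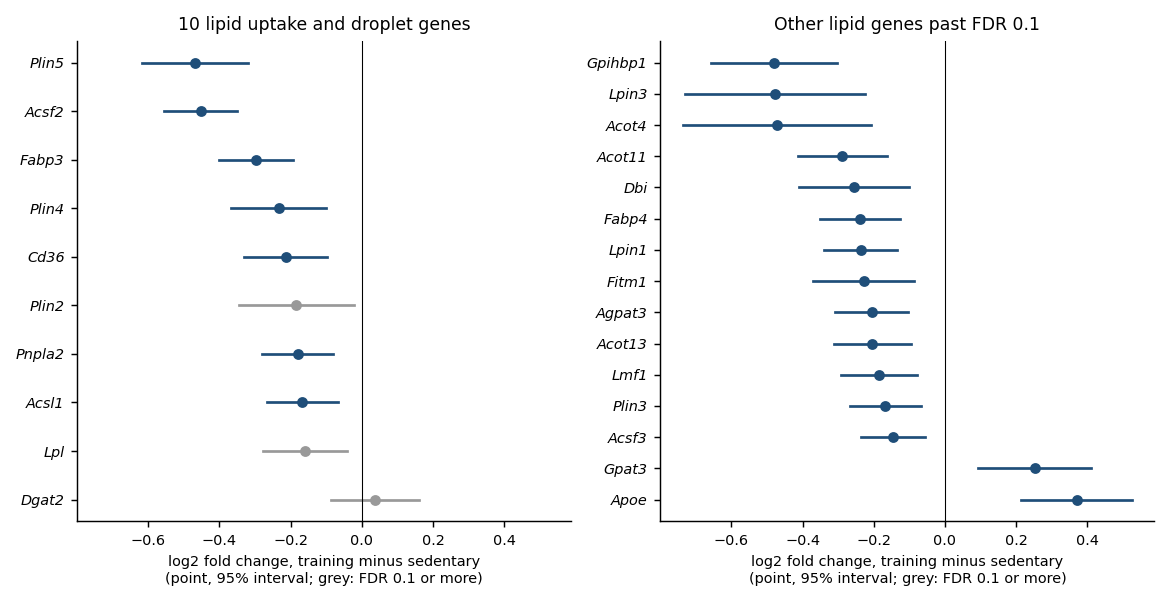
Log2 fold change, training minus sedentary, with its 95% interval from the edgeR fit, for the 10 genes on the left and for 15 called genes of 4 related lipid lists on the right. Blue marks genes called at an adjusted p below 0.1 and grey the rest; Plin5 (-0.47) and Acsf2 (-0.45) lie lowest on the left, and Apoe (0.37) and Gpat3 (0.25) are the only called genes above 0 on the right.

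Ratios of 2 genes within the same heart need no scaling between libraries. Exact permutation of the group labels was used to test 4 of them (two-sided, 252 possible assignments). These 4 pairs were chosen with earlier results of these data known, so their p-values are not independent evidence. Plin5 relative to Pnpla2, the coat against the lipase, was -1.65, -1.89, -2.02, -1.999 and -1.78 on the log2 scale in training hearts. The sedentary hearts were at -1.63, -1.50, -1.56, -1.55 and -1.64. The ratio was lower in every training heart, by a narrow margin in training heart 1, and the means differed by -0.29 (exact permutation p = 0.00794, the smallest this design allows; adjusted over the 4 ratios 0.0159). Acsf2 relative to Acsl1 was also lower in all 5 training hearts, at a mean log2 ratio of -5.11 ± 0.07 against -4.83 ± 0.05 (SD, n = 5), with the same exact permutation p of 0.00794 and adjusted p of 0.0159. So 2 synthetases that were both lower in CPM were lower to unequal degrees.

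Plin5 relative to Plin2 averaged 1.15 ± 0.21 in training and 1.45 ± 0.21 in sedentary hearts on the log2 scale (SD, n = 5), and the groups overlapped. The difference of -0.30 gave an exact permutation p of 0.0714 and an adjusted p of 0.0952, which did not pass 0.05. Fabp3 relative to Cd36 averaged -0.99 ± 0.09 against -0.90 ± 0.09 (SD, n = 5) and overlapped as well (exact permutation p = 0.206, adjusted 0.206). On the TPM scale, Plin5 made up 21.6 to 26.8% of the summed transcripts of the 5 perilipins in training hearts, with a median of 24.3%. In sedentary hearts it made up 26.6 to 30.0%, with a median of 27.9%. Plin1, the perilipin of fat cells, made up 0.209 to 3.39% over all hearts.

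**Figure D4:**
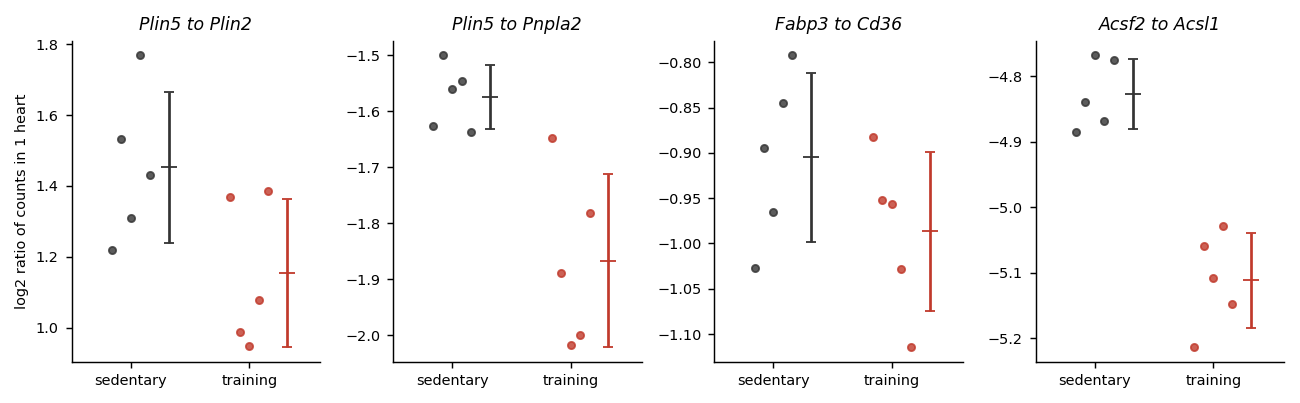
Log2 ratio of the counts of 2 genes in the same heart, 1 point per heart, with the mean and SD of each group of 5 beside the points; axes do not start at 0. The ratios of Plin5 to Pnpla2 and of Acsf2 to Acsl1 were lower in all 5 training hearts than in any sedentary heart, and the other 2 ratios overlapped. All pairs were chosen with earlier results of these data known.

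Around the 10 genes, 94 further lipid genes were counted in 4 lists by step, of which 83 passed the filter on low counts. Of these, 14 were called lower and 2 higher, and their median log2 fold change was -0.04. Beside each count by list below stand the shares over all genes tested, 4.26% called lower and 2.75% higher. Among partners in fatty acid uptake, 4 of 19 tested genes were called lower and 1 higher. Gpihbp1, which anchors lipoprotein lipase to the capillary wall, was 49.8 to 57.5 CPM in training hearts and 62.1 to 85.01 CPM in sedentary hearts. It did not overlap between the groups, with a log2 fold change of -0.48 ± 0.08 (SE; adjusted p = 0.0122, edgeR). Fabp4, the binding protein of fat and capillary cells, differed by -0.24 ± 0.05 (SE; adjusted p = 0.0305, edgeR). Lmf1, which is needed to fold the lipase, differed by -0.19 ± 0.05 (SE; adjusted p = 0.0582, edgeR). Apoe, a lipoprotein component, was called higher, at 382 to 510.1 CPM against 313 to 387 CPM, which overlapped (0.37 ± 0.07; adjusted p = 0.0207, edgeR). Angptl4, the lipase inhibitor made in heart, and the transporter Slc27a1 did not pass, at log2 fold changes of -0.29 ± 0.25 and -0.05 ± 0.07 (SE).

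In activation, 5 of 23 tested genes were called lower and none higher, and 9 of the 23 lay above 0. Acot11 and Acot13, thioesterases that split acyl-CoA again, differed by -0.29 and -0.20 on the log2 scale (edgeR adjusted p = 0.0231 and 0.0447). Dbi, the acyl-CoA binding protein, differed by -0.26 (edgeR adjusted p = 0.0682). Acsf3, which activates malonate in mitochondria, differed by -0.15 (edgeR adjusted p = 0.0738), and Acot4, a peroxisomal thioesterase, by -0.47 at a mean of 1.78 against 2.46 CPM (edgeR adjusted p = 0.0535). Acsl5, another long-chain synthetase, was not called, at 0.14 ± 0.07 (SE).

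In triglyceride synthesis, 3 of 14 tested genes were called lower and 1 higher. Lpin1, the phosphatase that makes diacylglycerol, was 280.1 to 299.9 CPM in training and 303 to 359 CPM in sedentary hearts, without overlap (log2 fold change -0.24 ± 0.05, SE; edgeR adjusted p = 0.0223). Its relative Lpin3 differed by -0.48 (edgeR adjusted p = 0.0444) and the acyltransferase Agpat3 by -0.21 (edgeR adjusted p = 0.0343). Gpat3, an enzyme of the first step, was higher, at 14.1 ± 0.72 against 11.8 ± 1.27 CPM (SD, n = 5; log2 fold change 0.25; edgeR adjusted p = 0.0797). Dgat1, the other enzyme of the last step, was not called, at -0.08 ± 0.07 (SE), as Dgat2 was not.

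Among 27 tested genes of the droplet and of lipolysis, 2 were called lower and none higher, a share near the 7.01% called over all genes. They were Plin3, the perilipin of small droplets, at -0.17 ± 0.05 (SE; edgeR adjusted p = 0.0653), and Fitm1, a muscle protein of droplet formation, at -0.23 ± 0.07 (SE; edgeR adjusted p = 0.0759). The regulators of ATGL did not pass: its activator Abhd5 was at -0.03 ± 0.05, its inhibitor G0s2 at -0.13 ± 0.11 and its inhibitor Hilpda at -0.02 ± 0.12 (log2 fold change, SE). Hormone-sensitive lipase, Lipe, was at -0.07 ± 0.10. Of 19 tested target genes of PPAR receptors, Cpt2 and Slc25a20, both of the carnitine route into mitochondria, were called lower, at -0.28 and -0.23 (edgeR adjusted p = 0.0088 and 0.0354). For comparison, 7.01% of all genes tested were called and 4.26% were called lower. The median of the PPAR list was -0.10, and 15 of the 19 genes lay below 0.

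Marker lists of heart cell types were set beside these values. Their counts of called genes compare with 7.01% called over all genes tested, 4.26% lower and 2.75% higher. Of the 10 heart muscle markers, 2 were called, Actc1 and Ckm, both lower, and their median log2 fold change was -0.10. Summed atrial markers ranged from 5052 to 7633 CPM in training and from 2838 to 6902 CPM in sedentary hearts, and 2 of 9 tested, Sln and Stard10, were called higher. Summed fibroblast markers ranged from 2979 to 3929 CPM against 2711 to 3086 CPM, with 3 of 10 called higher. Summed adipocyte markers ranged from 58.8 to 361 CPM against 53.9 to 238 CPM with 0 called, and Plin1 was lowest at 1.72 CPM in sedentary heart 2 and highest at 19.5 CPM in training heart 4. Ucp1, the marker of brown fat, did not pass the low-count filter and reached 6.35 CPM in training heart 4. Summed endothelial markers ranged from 998 to 1097 CPM against 1048 to 1122 CPM, with 1 of 10 called lower. Log2 fold changes lay above 0 in 9 of 9 tested atrial markers (median 0.46), 10 of 10 fibroblast markers (median 0.21) and 9 of 10 adipocyte markers (median 0.74). Of the 10 endothelial markers, 5 lay above 0 (median -0.02). The part of these shifts in the lower lipid genes was not tested. The following fits give values with a marker score as covariate. Where a score differs between the groups, its part and that of training cannot be told apart. The heart muscle score also includes Actc1 and Ckm, which were themselves called lower.

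Per 1000 CPM of summed heart muscle markers, Fabp3, Acsf2 and Plin5 did not overlap between the groups. The share of all genes without overlap on this scale was not computed. Myh6 was the largest part of the divisor, at a mean of 27236 CPM in training and 29353 CPM in sedentary hearts. Actc1, also part of it and called lower, was at a mean of 8022 CPM in training and 10470 CPM in sedentary hearts. Fabp3 was 12.1 to 13.1 in training and 13.7 to 14.2 in sedentary hearts on this scale, Acsf2 averaged 0.482 ± 0.021 and 0.603 ± 0.016 (SD, n = 5), and Plin5 was 1.62 to 2.06 and 2.11 to 2.48. The other 7 genes overlapped, with log2 ratios of the means from -0.10 for Plin4 to 0.17 for Dgat2. With the heart muscle marker score as a covariate in edgeR, a fit chosen after seeing the data, Acsf2 alone was called (log2 fold change -0.38, adjusted p = 0.0502), where 0.492% of all genes were called and 0.324% called lower. In that fit Plin5 was at -0.33 (adjusted p = 0.182), Fabp3 at -0.17 (adjusted p = 0.240), Acsl1 at -0.07 and Plin2 at -0.35 (adjusted p = 0.154). The score itself ran from -0.14 to 0.01 in training and from -0.03 to 0.12 in sedentary hearts. With atrial markers as the covariate in edgeR instead, Fabp3, Acsf2 and Plin5 were called (adjusted p = 0.0818, 0.0150 and 0.0607) and the other 4 were not, where 0.977% of all genes were called and 0.725% called lower.

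The groups also differed in core clock genes: 9 of 17 were called, 3 lower and 6 higher, against 7.01% called over all genes tested. Bmal1 and Clock, activators of the daily cycle, were lower at log2 fold changes of -1.19 and -0.30 (edgeR adjusted p = 0.0154 and 0.0158). Per3, Nr1d2, Bhlhe41 and Cry2, all repressors of the cycle, were higher at 0.80, 0.43, 0.29 and 0.33 (edgeR adjusted p = 0.0161, 0.0231, 0.0448 and 0.0522). With a score over the core clock genes, which averages both directions, as a covariate the 7 calls held (all genes: 9.42% called, 5.43% lower), while Plin2 moved from -0.18 to -0.08 and Dgat2 from 0.04 to -0.02, neither called. Scaling mattered for the smaller differences. With library totals alone in place of TMM, the median of all genes moved to 0.05, and Fabp3, Acsf2 and Plin5 were the 3 genes called (all genes: 8.85% called, 2.19% lower). On the deposited TPM, which carry no such factor, Fabp3 and Acsf2 alone did not overlap between the groups. How many of all genes do so was not computed for TPM. Plin5 was 57.6 to 77.2 TPM against 75.7 to 90.5 TPM there, crossing through 1 heart of each group. Dgat2 was 158 to 188 TPM in training against 151 to 161 TPM in sedentary hearts, with 4 training hearts above every sedentary heart.

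Leaving out each heart in turn, the number of these genes called ranged from 3 to 8, and Fabp3, Acsf2 and Plin5 were called in all 10 such fits, in which 3.29 to 9.58% of all genes were called and 1.91 to 5.37% called lower. Plin4 and Pnpla2 were called in 7, Cd36 in 6, Acsl1 in 5, Lpl and Plin2 in 1 each and Dgat2 in 0. The number was 4 without training heart 3, 4 without training heart 4, 3 without sedentary heart 3 and 4 without sedentary heart 4. Lpl was called without sedentary heart 1 (edgeR adjusted p = 0.0917), and Plin2 was called without sedentary heart 4 (edgeR adjusted p = 0.0862), the heart in which it was lowest.

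**Figure D5:**
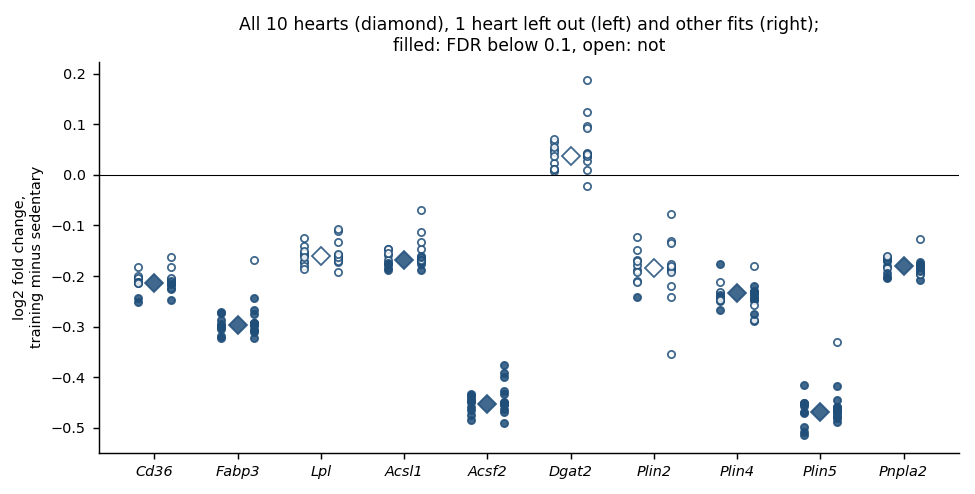
Log2 fold change of each of the 10 genes, training minus sedentary, with all 10 hearts (diamond), with 1 heart left out (circles on the left) and under other processing choices and covariates (circles on the right). Filled symbols are below an adjusted p of 0.1; Acsf2 is filled throughout, and Dgat2 is open throughout and crosses 0 in 1 fit.

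The genes whose levels most resembled those of Plin5, Fabp3, Acsf2 and Cd36 from heart to heart were sought among 10231 genes of at least 5 CPM, with the mean of each group removed. As the highest of so many values over only 10 hearts, these correlations are high by selection and are given as a description. Plin5 was most like Mlycd, the malonyl-CoA decarboxylase (Pearson r = 0.97), and Fbxo3 (r = 0.93). Fabp3 was most like Ap5s1 and Dguok (r = 0.94 for both), and Acsf2 most like Slc12a7 (r = 0.98) and Ipo5 (r = 0.94). Cd36 was most like ENSMUSG00000115610, which has no symbol in the annotation used (r = 0.97), and Nbeal1 (r = 0.96).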

How the data were processed

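Poly-A RNA of 10 whole hearts was made into directional libraries. The authors deposited, for each heart, counts of uniquely mapped reads for each gene and strand from STAR 2.7.10a on GRCm39, not normalized or filtered. They also deposited expected counts, effective lengths and TPM per gene from RSEM 1.3.3, whose strand setting is not given in the sources used here. TPM are the authors' values, relative to the sum of all transcripts of a heart.

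Counts of the reverse strand were used (median 95.4% of both strands). Multimapping reads made up 17.9 to 19.2% and reads on no gene 4.15 to 4.89% of all reads, and both were left out. Symbols and positions came from GENCODE M39 for 56017 of 56748 identifiers. Groups came from the labels. In R 4.3.3, edgeR 4.0.16 was run on the 15454 genes kept by filterByExpr, with TMM scaling and its quasi-likelihood test, and p-values were adjusted by Benjamini-Hochberg over all of them (call below 0.1). Ratios within a heart had 0.5 added to each count. Expected counts were rounded for the alternative fit. DESeq2 1.42.0 was an alternative. Scores for covariates and correlations used log2 CPM with a prior count of 2. Promoters and 100-base stretches were read from the GRCm39 genome. The steps were tested on simulated data. There, 43% of genes given a log2 change of 0.3 up or down were called, and 78.8% of those given 0.6. Of all calls, 10.4% were false. A gene that was not called may therefore still differ.

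The 10 genes, the lists and the ratios were chosen with earlier results of these data known. Called markers of fibroblasts and endothelium were counted and not named. Named beside the 10 genes were, in each lipid, PPAR and clock list, the called genes (at most 6 by p), and Dgat1, Abhd5, G0s2, Plin3, Gpihbp1, Angptl4, Slc27a1, Acsl5, Lipe, Hilpda and Plin1 as genes of the same steps. A gene that this rule selects is counted in its list and is not reported here. In further lists, 0 of 10 tested macrophage markers, 0 of 5 erythroid markers and 0 of 10 immediate early genes were called. Of 5 tested skeletal muscle markers, 2 were called lower, Acta1 and Ckm, and Ckm is also in the heart muscle list. Over all genes tested, 7.01% were called and 4.26% called lower. With 29461697 to 39431030 counts per heart, genes of a few CPM, such as Acot4 and Hilpda, still rest on few counts, and counting error limits them.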

Additional observations from a re-analysis of the deposited data

Results flagged for a closer look

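In 4 of 60 groups of 5 hearts examined, 1 heart stood far from the other 4 by Dixon's test, where chance gives about 1 in 20. Cd36 in sedentary heart 5 was 1713 CPM, with the next lowest sedentary heart at 1867 CPM. Acsf2 in sedentary heart 1 was 39.2 CPM, with the next at 43.4 CPM. Lpin1 in sedentary heart 1 was 303 CPM, with the next at 343 CPM. Plin3 in sedentary heart 4 was 188 CPM, with the next at 199 CPM. All 4 were the lowest of the sedentary group and lay on the side of the training hearts.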

How the results depend on the processing

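Against 7 of the 10 genes called lower, DESeq2 called 8 (adding Lpl; 9.71% of all genes called, 5.65% lower), and edgeR called 7 with size factors of DESeq2, without the low-count filter, with at least 10 counts in every library, with counts of both strands, with RSEM expected counts and without genes of mitochondrial DNA. Those edgeR fits called from 3.55% of all genes (no low-count filter) to 7.82% (at least 10 counts in every library), and 6.21% from RSEM counts. The number of the 10 genes called fell to 4 at an adjusted p below 0.05, where no share of all genes was computed. It fell to 3 with the atrial score (0.977% of all genes called, 0.725% lower) and to 1 with the heart muscle marker score (0.492% called, 0.324% lower). Without the 2 hearts lowest in atrial markers (sedentary 2 and 5) it was 4, where 1.79% of all genes were called and 1.11% lower. With library totals alone it was 3, where 8.85% were called and 2.19% lower. It was 5 with the adipocyte score (2.91% of all genes called, 1.89% lower) and 5 without the 2 hearts highest in adipocyte markers (training 4 and sedentary 1; 5.75% called, 3.36% lower), and 3 to 8 leaving out 1 heart. No gene of the 10 was called higher under any of these choices. From RSEM counts the log2 fold changes were -0.29 for Fabp3, -0.45 for Acsf2 and -0.22 for Plin4. Dgat2 turned from 0.04 to -0.022 with the core clock score.

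Of the related lipid genes, 14 lower and 2 higher became 7 and 1 at an adjusted p below 0.05, 6 and 1 with the adipocyte score, 3 and 0 with the atrial score, 0 and 0 with the heart muscle marker score, 2 and 0 without the hearts lowest in atrial markers, and 9 and 5 with library totals alone. RSEM counts gave 1 higher, and leaving out the hearts highest in adipocyte markers gave 8 lower. The shares of all genes called in these fits are those given above, and none was computed for the 0.05 limit. Leaving out 1 heart gave 6 to 14 lower and 1 to 3 higher; the cause of these changes was not tested. The fits with the heart muscle score and those leaving out 2 hearts by a marker were chosen after seeing the data.

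The mouse numbers do not pair the groups: residual correlations of same-numbered hearts ran from -0.097 to 0.159. With the number as a replicate block, 6 of the 10 genes were called, without Acsl1 (edgeR adjusted p = 0.110), where 7.36% of all genes were called and 4.33% lower, and 12 related genes lower and 2 higher. The ratios of Plin5 to Pnpla2 (-0.29) and Acsf2 to Acsl1 (-0.28) then had an exact paired permutation p adjusted to 0.125, since 5 pairs allow none below 0.0625. No other choice moved a ratio past or back over 0.05.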
